A study of Mus musculus with 6 samples.

Results

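Chemokines, interleukins and their receptors were followed across the aortas of Mymsl knockout (KO) and wild-type (WT) mice. The members are the rows of the deposited gene table whose symbols belong to the Ccl, Cxcl, Cx3c, Ccr, Cxcr, Ackr and Il naming series, chosen by name and not by any measured value. The name rule took 142 of 53735 rows. It also took a few genes that only share the name, such as the enzyme gene Il4i1 and the antisense transcript Il1bos. Mymsl is a long noncoding RNA gene. The tested group was 3 aortic libraries labelled Mymsl KO and the other group 3 libraries labelled Mymsl WT. Per the labels' protocols, RNA came from purified smooth muscle cells of the aortic medial layer. The strain, sex and age of the mice, the construction of the knockout allele and the number of mice behind each library are not stated in the labels, so p-values measure only the spread between these libraries. The design text speaks of 3 pairs of mice without saying what a pair shares.

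Chemokines are small secreted proteins that guide the migration of leukocytes along a gradient, and they act through receptors coupled to inhibitory G proteins. Atypical chemokine receptors bind the same ligands without G protein signalling and scavenge or transport them. Interleukins act through multi-chain receptors: the gp130 group signals through Janus kinases and STAT proteins, and the receptors of the interleukin-1 family signal through Myd88 to NF-kB. In the artery wall, smooth muscle is known to carry many of these receptors, while most of the ligands are made by leukocytes, endothelium or activated tissue cells.

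Total counts lay between 20048216 and 23243129 in KO libraries and between 23506674 and 25521123 in WT libraries. Mitochondrially encoded rows held 10% to 18.9% of counts in KO and 5.66% to 9.02% in WT. Mymsl itself had no row under its own symbol, which leaves the knockout unchecked by name. All 10 smooth muscle markers passed the filter on low counts, and their sum was 42600 to 56700 CPM in KO and 51200 to 54800 CPM in WT. CPM here stands for a library's counts scaled to a common total, with the trimmed mean of M values (TMM) as scaling factor. Members together took 0.103% to 0.113% of counts in KO libraries and 0.1% to 0.115% in WT libraries.

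The members fell into 41 interleukin receptor subunits, 42 interleukins and other ligand-side genes, 24 CC chemokine ligands, 14 CXC or CX3C chemokine ligands, 17 signalling chemokine receptors and 4 atypical receptors. A filter on low counts, which asks for about 10 counts in at least 3 libraries, let 48 members into the test. These were 20 receptor subunits, 8 interleukins and ligand-side genes, 9 CC ligands, 5 CXC or CX3C ligands, 2 signalling chemokine receptors and the 4 atypical receptors. Of the remaining 94, 25 had at least 10 counts in all, 39 had 1 to 9 counts and 30 had 0 counts in every library.

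Receptor subunits of the gp130 group and Cxcl12 stood at the top when levels were set per kilobase of annotated exon. Il11ra1, the ligand-binding chain for interleukin-11, averaged 53.7 ± 2.52 CPM per kilobase in KO and 49.2 ± 0.357 in WT (SD, n = 3 each). Il6st, the shared gp130 signalling chain, averaged 32.9 ± 0.579 CPM per kilobase in KO and 35.5 ± 1.41 in WT. Cxcl12, the ligand of Cxcr4, averaged 12.5 ± 1.77 in KO and 14.3 ± 2.35 in WT on the same scale. The levels of Il11ra1 and Il6st were separated by more than their spread, and those of Il6st and Cxcl12 also. Next came Il17rc (11.6 ± 0.314 in KO, 11 ± 0.714 in WT), Il13ra1 (9.05 ± 0.804 in KO, 10.9 ± 0.689 in WT), Il1r1 (8.34 ± 0.351 in KO, 10.9 ± 1.16 in WT) and Ackr3 (10.3 ± 2.21 in KO, 7.61 ± 2.6 in WT). Cxcl12 and Il17rc did not differ beyond their spread in KO. In WT the libraries of Il17rc, Il13ra1 and Il1r1 overlapped, and every Ackr3 library lay below those of Il13ra1. In KO the libraries of Il17rc lay above those of Il13ra1, and those of Il13ra1, Il1r1 and Ackr3 overlapped. Per-length levels need an annotated place, and 5 members, among them Ccl19 with several copies under its name, had none or more than 1.

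**Figure D1:**
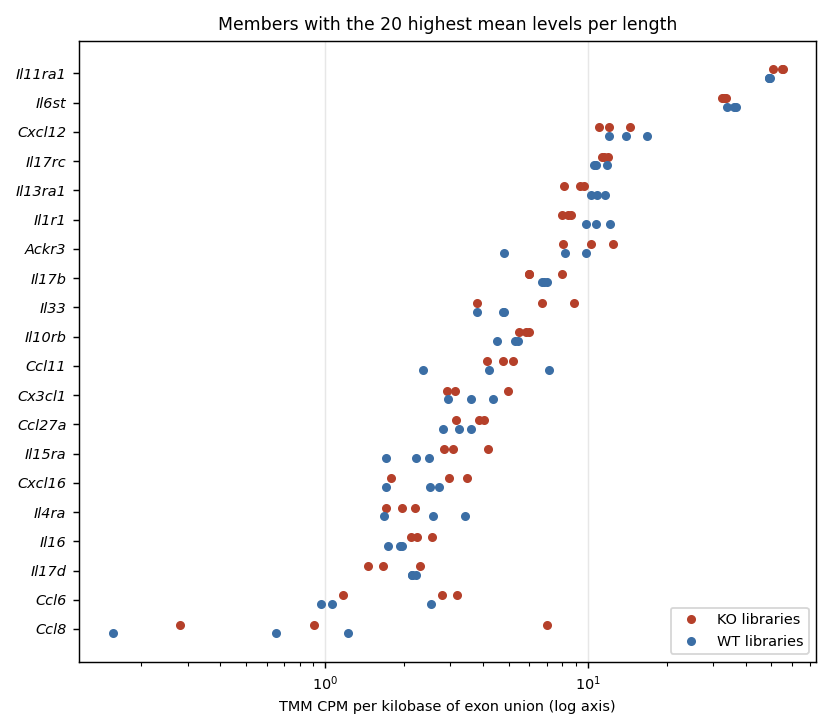
Members with the 20 highest mean levels per length among those tested, on a log axis of TMM CPM per kilobase of exon union, with 1 point per library (KO in red above, WT in blue below). Il11ra1 and Il6st lie apart from the rest, and the Ccl8 point of 1 KO library lies far to the right of the other 5.

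No member passed the threshold in the comparison of KO with WT. By edgeR's quasi-likelihood test with Benjamini-Hochberg adjustment over 14145 rows, 0 of 48 members had an adjusted p under 0.05, where 0.00707% of all tested rows did. That is a single row, the clone-named RP23-57D10.3, which had 0 counts in each KO library against 314, 378 and 273 counts in WT replicates 1, 2 and 3. DESeq2 called 1 of the 13 members to which it gave an adjusted p, Il1r1, against 2.35% of 8467 rows. It gave none to the other tested members, among them Il15ra, Ackr1 and Ackr4, nor to RP23-57D10.3. At an unadjusted p under 0.05 in edgeR, 5 members were higher, where 6.8% of all tested rows were, and 2 were lower, where 7.76% were. In 6 members every KO library lay above every WT library, where this held for 10.5% of tested rows, and in 5 every KO library lay below, where it held for 11.3%. Out of 48 members these counts are close to the shares of all rows.

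Directions leaned upward among tested members. Of the 48, 37 had a log2 fold change (KO over WT) above 0 and 11 below, with a median of 0.22, while 52.5% of all tested rows lay above 0 with a median of 0.01. Without KO replicate 3, 30 of these 48 lay above 0. The median over tested members was 0.40 without KO replicate 2, 0.38 without WT replicate 1 and 0.14 without WT replicate 2. The deviation was not shared by the KO libraries: the median member stood at 0.36, −0.20 and 0.39 log2 units from the WT mean in KO replicates 1, 2 and 3, against 0.12, −0.13 and −0.01 in WT replicates 1, 2 and 3. The macrophage and monocyte markers, of which 13 of 15 were tested, had a similar order over libraries. Their summed level was 120, 56.9 and 150 CPM in KO replicates 1, 2 and 3 and 103, 61 and 93.9 CPM in WT replicates 1, 2 and 3. Replicate 2 of each genotype was also lowest for some other lists, but highest for the smooth muscle and the Schwann cell and nerve lists. Summed adventitial fibroblast markers stood at 3370, 2420 and 3450 CPM in KO and 3470, 2590 and 3550 CPM in WT. The scarce T and natural killer cell markers, with 0 of 12 tested, had sums of 1.65, 0.382 and 1.6 CPM in KO. In WT these sums were close, at 0.872, 0.675 and 0.787 CPM. Summed smooth muscle markers were 42600, 56700 and 46000 CPM in KO and 51200, 54800 and 53900 CPM in WT. Summed endothelial and adipocyte markers were lowest in replicate 2 in KO but in replicate 3 in WT. Of the tested macrophage and monocyte markers, 12 lay above 0 and 1 below, and of the endothelial markers 8 above and 3 below. Of the adventitial fibroblast markers, 8 lay above 0 and 2 below. Of the 10 smooth muscle markers, 1 lay above 0 and 9 below, with a median of −0.14. The part of these cell types in the members' values was not tested. In bulk RNA, more cells of a type and more RNA per cell cannot be told apart.

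**Figure D2:**
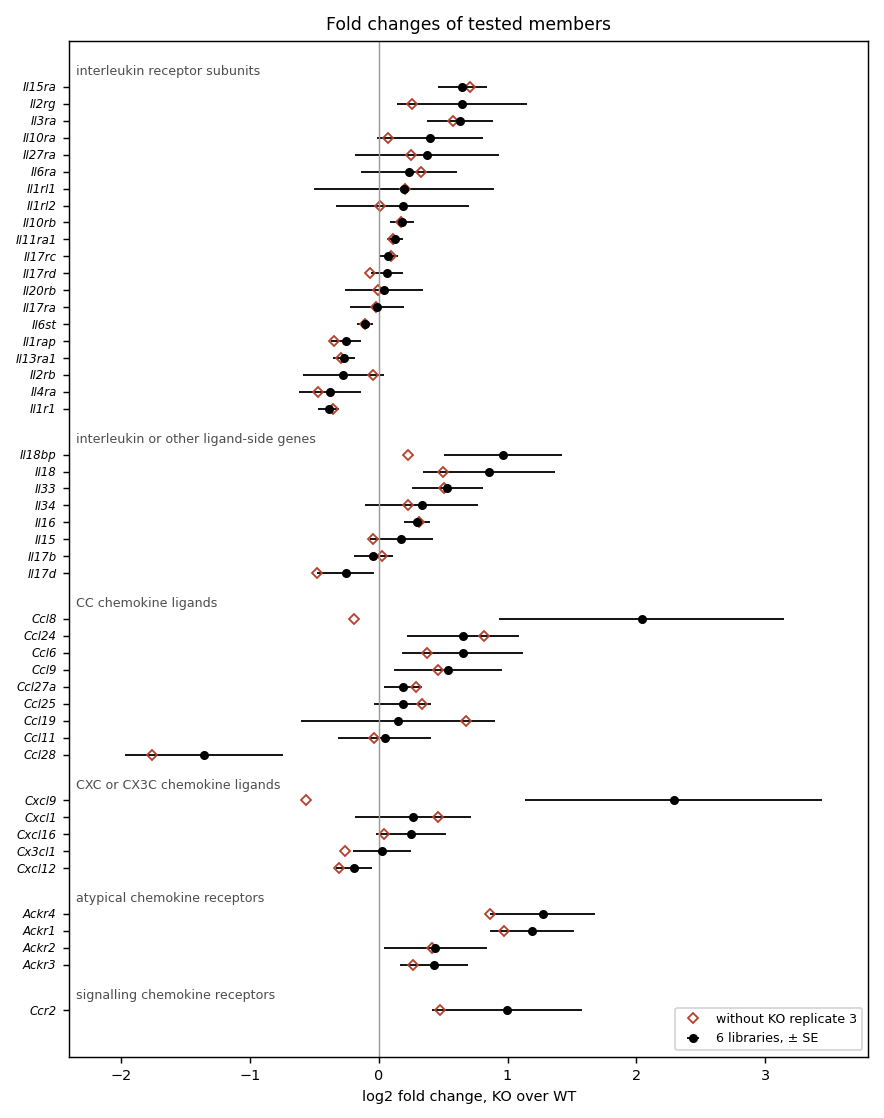
Log2 fold changes (KO over WT) of tested members by role, as black points with their standard errors, and the same without KO replicate 3 as open diamonds. Points of abundant receptors such as Il6st and Il1r1 sit near their diamonds, while those of Cxcl9, Ccl8 and Il18bp sit far from them.

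The interleukin-1 receptor pair had lower values in KO. Il1r1, the signalling receptor for interleukin-1, lies on chromosome 1 from 40225080 to 40317257 on the plus strand (GRCm38). Its level was 55, 53.6 and 50.6 CPM in KO against 68.5, 62.7 and 77.3 CPM in WT, in the order of replicates 1 to 3 here and in what follows. The groups did not overlap, and the log2 fold change was −0.39 ± 0.084 (SE). This did not pass in edgeR (adjusted p = 0.239) and passed in DESeq2 (adjusted p = 0.0291). Over the 12 alternative settings the adjusted p of Il1r1 lay between 0.0291 and 0.575, and its log2 fold change between −0.46 and −0.30. Il1rap, the co-receptor that Il1r1 needs to signal, had 10.1, 8.74 and 11.2 CPM in KO against 12, 12.2 and 11.6 CPM in WT. Its libraries were also separate, with a log2 fold change of −0.26 ± 0.116 that did not pass (adjusted p = 0.359). Exons of Il1rap overlap the predicted gene Gm20319 on the opposite strand by 552 bases in the annotation, and whether the counting used strand is not stated in the labels.

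Receptor chains for other cytokines went both ways. Il13ra1, which binds interleukin-13 and pairs with Il4ra, had 30.2, 35.9 and 34.6 CPM in KO against 40.2, 43.2 and 38.1 CPM in WT. All 3 KO libraries were lower, at −0.27 ± 0.087 (adjusted p = 0.279, edgeR). Il15ra, which holds interleukin-15 and presents it to neighbouring cells, had 18.6, 12.6 and 13.7 CPM in KO against 11, 9.89 and 7.62 CPM in WT. Each KO library was higher here, at 0.65 ± 0.189 (adjusted p = 0.273), and the value was 0.71 without KO replicate 3. Il3ra, the ligand-binding chain for interleukin-3, had 5, 2.58 and 4.2 CPM in KO against 2.45, 2.66 and 2.48 CPM in WT. KO replicate 2 lay among the WT values, and the difference of 0.63 ± 0.256 did not pass (adjusted p = 0.325).

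Il6st and Il11ra1, the abundant chains of the gp130 group, differed little between genotypes. Il6ra, a scarcer chain of that group, is given further below. Il6st had 372, 359 and 366 CPM in KO against 398, 376 and 407 CPM in WT. Every KO value was lower, by a small amount of −0.11 ± 0.065 on the log2 scale (adjusted p = 0.453, edgeR). Il11ra1 had 227, 247 and 246 CPM in KO against 222, 218 and 220 CPM in WT, so its libraries were separate in the other direction. The log2 fold change was 0.13 ± 0.063 and did not pass (adjusted p = 0.386). The exons of Il11ra1 and Ccl27a, on opposite strands of chromosome 4, overlap by 8 bases. Rows for near-identical copies of both genes held almost no counts. Il11ra2 had 8 in all against 31391 for Il11ra1, and Ccl27b had 0 against 1109 for Ccl27a. How reads that match several copies were treated is not stated. Il10rb, the chain shared by the receptors for interleukins 10 and 22, was the other tested subunit with every KO library higher and was looked up after its values were seen. It had 20.8, 22.8 and 22.2 CPM in KO against 20.7, 20.1 and 17.2 CPM in WT, a log2 fold change of 0.18 ± 0.092 (adjusted p = 0.389). Il10rb shares 569 exonic bases with the predicted gene Gm21970 on the same strand.

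The interleukin-17 receptor chains overlapped between genotypes. Il17rc, a co-receptor chain, had 32, 30.9 and 30.3 CPM in KO against 28.7, 31.7 and 28.1 CPM in WT (0.07 ± 0.073, adjusted p = 0.65, edgeR). Il17ra, the chain shared by the family, had 6.45, 3.82 and 5.23 CPM in KO against 5.94, 4.73 and 4.97 CPM in WT (−0.01 ± 0.211, adjusted p = 0.983). Il6ra, the chain that binds Il6, had 8.41, 2.77 and 4.54 CPM in KO against 4.77, 4.93 and 3.6 CPM in WT (0.24 ± 0.37, adjusted p = 0.787). Its KO libraries held both the highest and the lowest value, and the log2 fold change was −0.28 without KO replicate 1. That of Il17ra was 0.16 without KO replicate 2 and 0.09 without WT replicate 1. Il4ra, the partner of Il13ra1, had 11.8, 10.3 and 13.2 CPM in KO against 15.4, 10.1 and 20.5 CPM in WT, with overlapping groups (−0.38 ± 0.24, adjusted p = 0.471). Il2rg, the common gamma chain of lymphocyte receptors, had 1.7, 0.669 and 2.25 CPM in KO against 1.49, 0.556 and 0.911 CPM in WT (0.65 ± 0.507, adjusted p = 0.559). Replicate 2 was the lowest library of each genotype for Il2rg. It was also lowest for the summed macrophage, adventitial fibroblast and scarce T and natural killer cell markers, and highest for the smooth muscle markers. These 5 chains were chosen after their values were seen. Over all 20 tested subunits, 13 lay above 0 and 7 below, between −0.39 and 0.65 with a median of 0.10, and 0 passed in edgeR.

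**Figure D3:**
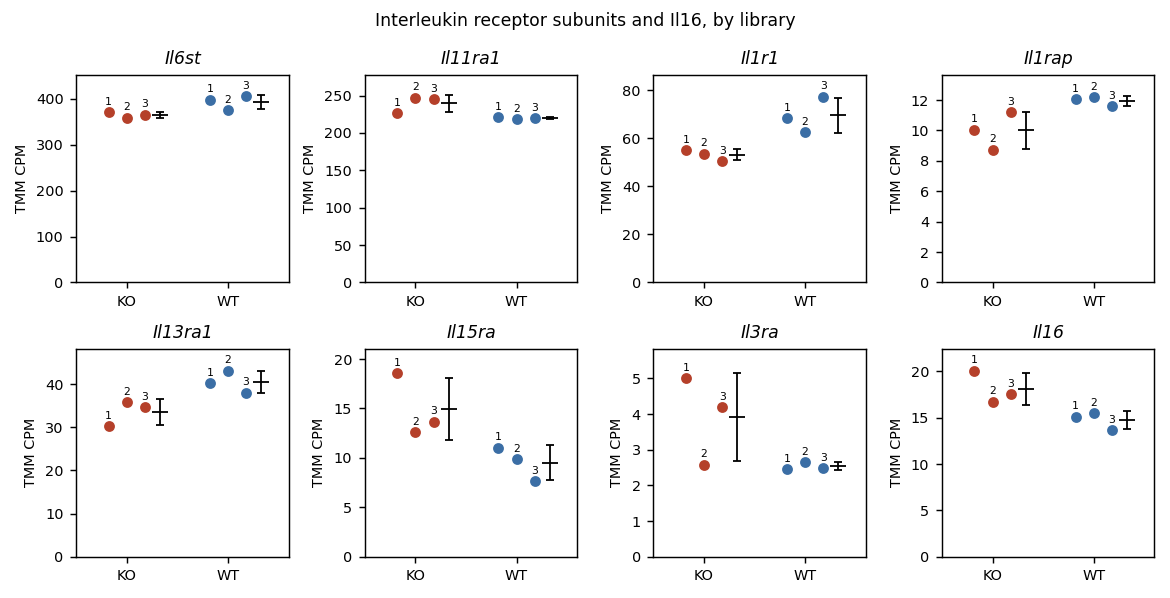
TMM CPM of 7 interleukin receptor subunits and of Il16 in each library, with replicate numbers above the points and mean ± SD (n = 3) beside each group, KO left of WT. Every KO point of Il1r1, Il1rap, Il13ra1 and Il6st lies below the WT points, and every KO point of Il15ra, Il11ra1 and Il16 lies above them.

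Among interleukins, Il16 and Il33 had the highest CPM. Per kilobase of exon, the mean over all libraries was highest for Il17b (6.74), then Il33 (5.45), with Il16 at 2.09. The KO libraries of Il17b and Il33 overlapped on that scale. Il16, whose product is cut to a secreted attractant of cells carrying Cd4, had 20.1, 16.7 and 17.6 CPM in KO against 15.1, 15.5 and 13.7 CPM in WT. The groups were separate, at 0.29 ± 0.1 (adjusted p = 0.279, edgeR). Its exons overlap those of Stard5 on the opposite strand by 1202 bases. Il33, a nuclear protein released on injury that acts on Il1rl1, had 25.7, 10.9 and 19.3 CPM in KO against 13.8, 13.8 and 10.9 CPM in WT. KO replicate 2 was as low as the lowest WT library, and the difference of 0.53 ± 0.278 did not pass (adjusted p = 0.399). Il17b, a member of the interleukin-17 family, had 7.74, 5.83 and 5.84 CPM in KO against 6.64, 6.79 and 6.5 CPM in WT, with overlapping groups and a log2 fold change of −0.04 ± 0.15 (adjusted p = 0.913). Without KO replicate 2 its value was 0.03 and without KO replicate 3 also 0.03, on the other side of 0.

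The other ligand-side genes were scarce. Il7, a survival factor for lymphocytes, was left out by the filter, with 5, 8 and 10 counts in KO and 10, 12 and 10 counts in WT. Il1b, the secreted ligand of Il1r1, reached 1, 0 and 1 counts in KO against 19, 1 and 2 counts in WT. WT replicate 1 alone carried most of the Il1b counts. That library also had the highest summed neutrophil markers (2.99 CPM, against 0.199 to 0.497 CPM in the other 5). Of these 7 markers, 0 passed the filter and 3 had 0 counts throughout. The part of neutrophils in the Il1b counts was not tested. Il6, the ligand that binds Il6ra, had at most 3 counts in any library, and Il1a, Il4, Il13, Il17a and Il22 had 0 counts in each. A row at 0 throughout allows up to 0.0473 CPM over the KO group and 0.0409 CPM over the WT group, against a floor of 3 counts that covers counting error only. Il15, the ligand held by Il15ra, had 2.79, 2.1 and 3.63 CPM in KO against 2.7, 2.66 and 2.19 CPM in WT, with overlapping groups (0.18 ± 0.242, adjusted p = 0.754, edgeR). Il18, the cytokine neutralised by Il18bp, had 0.619, 0.43 and 0.952 CPM in KO against 0.623, 0.199 and 0.29 CPM in WT (0.85 ± 0.511, adjusted p = 0.449). KO replicate 3 was the highest library for both, and without it Il15 had −0.05 and Il18 0.50. Both were chosen after their values were seen. Of the 42 interleukins and other ligand-side genes, 17 were at 0 throughout. The 8 that were tested lay between −0.26 and 0.96 with a median of 0.31, 6 above 0 and 2 below, and 0 passed.

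Chemokine ligands were led by Cxcl12. It had 90, 98.3 and 118 CPM in KO against 137, 98.8 and 115 CPM in WT, with overlapping groups and a log2 fold change of −0.19 ± 0.14 (adjusted p = 0.527, edgeR). Cx3cl1, a chemokine tethered to the cell surface that is bound by Cx3cr1, had 11.5, 12.3 and 19.6 CPM in KO against 17.1, 11.5 and 14.1 CPM in WT. Its log2 fold change of 0.02 ± 0.228 (adjusted p = 0.969) became −0.26 without KO replicate 3 and −0.11 without WT replicate 2. Cxcl16, another membrane-anchored ligand, which binds Cxcr6, had 8.97, 5.4 and 10.5 CPM in KO against 8.18, 5.17 and 7.58 CPM in WT (0.25 ± 0.269, adjusted p = 0.684). In both groups of Cxcl16, replicate 2 was the lowest library.

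Among the CC ligands, Ccl27a, a ligand of Ccr10, had 9.54, 9.12 and 7.48 CPM in KO against 7.68, 6.68 and 8.57 CPM in WT (0.19 ± 0.148, adjusted p = 0.559, edgeR). Ccl11, the eosinophil attractant eotaxin, had 5.16, 4.49 and 5.62 CPM in KO against 7.72, 2.54 and 4.56 CPM in WT. The KO values lay within the WT range, and the log2 fold change of 0.05 ± 0.358 (adjusted p = 0.963) turned to −0.03 without KO replicate 3, −0.27 without WT replicate 2 and −0.01 without WT replicate 3. Ccl6, a chemokine of mouse myeloid cells, had 5, 2.1 and 5.71 CPM in KO against 4.52, 1.91 and 1.74 CPM in WT (0.65 ± 0.471, adjusted p = 0.526). The low KO library of Ccl6 was replicate 2, which also had the lowest summed macrophage and adventitial fibroblast markers. In WT, Ccl6 was lowest in replicate 3, while both of these marker sums were lowest in replicate 2. Ccl28, a mucosal ligand of Ccr10 and Ccr3, had 0.774, 0.0478 and 0.779 CPM in KO against 1.62, 1.27 and 1.24 CPM in WT. All KO libraries were lower, KO replicate 2 with a single count, but the difference of −1.36 ± 0.615 did not pass (adjusted p = 0.359). It was −0.82 without KO replicate 2.

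A small set of inflammatory chemokines had most of its counts in KO replicate 3. Members with a total of at least 20 counts whose highest library had at least 3 times the CPM of the next were sought, a rule made after the values were seen and given with no test. KO replicate 3 led in this way for 5 of 64 eligible members, Cxcl9, Cxcl10, Ccl8, Ccl12 and Ccl5, where it led for 0.435% of 16082 eligible rows. WT replicate 1 led for 1 member, Il1b, and the other 4 libraries for 0. Cxcl9 and Cxcl10 are ligands of Cxcr3 known to be induced by interferon, Ccl8 acts on Ccr8 in the mouse, Ccl12 is a mouse ligand of Ccr2, and Ccl5 attracts T cells and monocytes.

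The promoter windows of the members of this set that RefSeq tables of GRCm38.p6 held are shown, since these genes were high in the same library. Each runs from 250 bases before to 50 bases after the gene start, 5′ to 3′ on the gene's strand. Capitals mark matches on either strand to an interferon-stimulated response element (ISRE, GAAANNGAAA), a gamma-activated site (GAS, TTCNNNGAA), the NF-kB consensus or a TATA box (TATAAA). Cxcl9 (chr5:92328030-92328329) and Cxcl10 (chr5:92348840-92349139) are on the minus strand, and Ccl12 (chr11:82101595-82101894) and Ccl8 (chr11:82114935-82115234) on the plus strand.
Cxcl9: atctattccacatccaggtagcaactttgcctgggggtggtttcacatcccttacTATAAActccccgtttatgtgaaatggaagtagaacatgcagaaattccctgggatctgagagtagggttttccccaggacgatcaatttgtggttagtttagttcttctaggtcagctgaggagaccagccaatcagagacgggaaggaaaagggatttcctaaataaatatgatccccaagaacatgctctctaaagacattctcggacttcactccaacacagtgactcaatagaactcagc
Cxcl10: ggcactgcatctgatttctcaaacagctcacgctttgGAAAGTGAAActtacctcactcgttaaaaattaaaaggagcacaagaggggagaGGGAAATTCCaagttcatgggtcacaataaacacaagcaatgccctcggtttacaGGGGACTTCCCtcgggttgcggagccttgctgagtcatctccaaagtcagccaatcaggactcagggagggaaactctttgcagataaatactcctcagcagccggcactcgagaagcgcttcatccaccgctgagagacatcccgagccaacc
Ccl12: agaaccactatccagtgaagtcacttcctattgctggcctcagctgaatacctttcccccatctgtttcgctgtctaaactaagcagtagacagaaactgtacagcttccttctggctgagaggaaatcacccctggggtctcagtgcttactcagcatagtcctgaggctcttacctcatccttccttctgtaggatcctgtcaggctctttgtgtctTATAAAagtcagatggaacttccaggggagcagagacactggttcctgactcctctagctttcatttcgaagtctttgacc
Ccl8: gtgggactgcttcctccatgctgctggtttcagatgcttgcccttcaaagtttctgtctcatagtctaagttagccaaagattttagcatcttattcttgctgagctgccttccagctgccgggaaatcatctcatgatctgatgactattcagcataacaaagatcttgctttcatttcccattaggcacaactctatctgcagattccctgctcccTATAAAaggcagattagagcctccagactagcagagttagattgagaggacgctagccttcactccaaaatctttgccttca

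Counted from the gene start, the Cxcl10 window had an ISRE match at −213 and NF-kB matches at −159, −104 and −103, of which the last pair overlap. A TATA match stood at −31 in the Ccl12 window, at −32 in that of Ccl8 and at −195 in that of Cxcl9. The windows of Cxcl9, Ccl12 and Ccl8 held no ISRE, GAS or NF-kB match, and that of Cxcl10 no GAS or TATA match. Ccl5, the remaining gene of the set, had no window. Over all 32851 windows of the same length, 3.44% held the ISRE letters, 8.3% the GAS letters, 8.46% the NF-kB consensus and 13.6% the TATA letters. The 109 members with a window had 131 windows between them. Of these windows, 6 held the ISRE, 14 the GAS, 20 the NF-kB and 27 the TATA letters. These are matches of letters and not bound sites.

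In counts, Cxcl9 had 11, 4 and 170 in KO replicates 1, 2 and 3 against 11, 20 and 10 in WT replicates 1, 2 and 3. KO replicate 1 lay within the WT range and KO replicate 2 below it, and the log2 fold change of 2.29 ± 1.15 (adjusted p = 0.387, edgeR) became −0.56 without KO replicate 3. Cxcl10, whose promoter holds the ISRE match, had 0, 20 and 85 counts in KO against 0, 2 and 5 counts in WT and was left out by the filter. Here KO replicate 2 also exceeded the WT libraries, while KO replicate 1 had none. Exons of Cxcl10 overlap those of Art3 on the opposite strand by 133 bases.

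Ccl8 had 9, 3 and 83 counts in KO against 15, 2 and 8 counts in WT, a log2 fold change of 2.04 ± 1.11 (adjusted p = 0.414, edgeR) that became −0.19 without KO replicate 3. Ccl12, not tested, had 7, 4 and 39 counts in KO against 2, 2 and 2 counts in WT, so its lowest KO library still exceeded the WT libraries. Ccl5, also not tested, had 5, 1 and 22 counts in KO against 3, 5 and 2 counts in WT. Outside KO replicate 3, the KO and WT values of Cxcl9, Ccl8 and Ccl5 overlapped. Il18bp, a secreted protein that neutralises interleukin-18, was highest in the same library, with 41, 71 and 190 counts in KO against 57, 57 and 59 counts in WT. Its log2 fold change was 0.96 ± 0.455 (adjusted p = 0.369) and 0.23 without KO replicate 3, and its exons overlap those of Numa1 on the opposite strand by 80 bases.

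**Figure D4:**
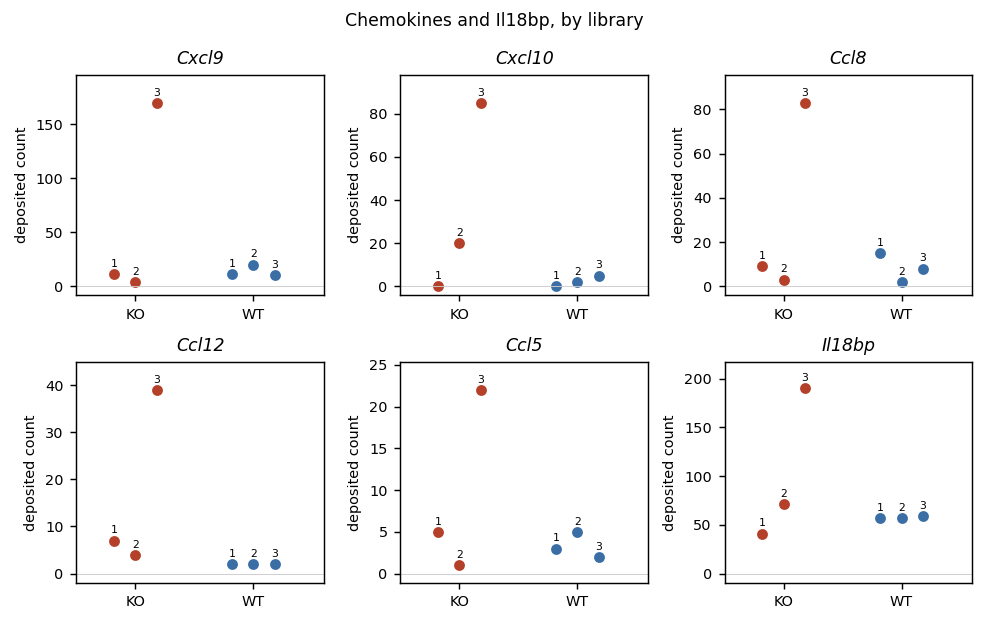
Deposited counts of Cxcl9, Cxcl10, Ccl8, Ccl12, Ccl5 and Il18bp in each library, with replicate numbers above the points, KO left of WT. KO replicate 3 is the highest point in every panel, at 170 counts for Cxcl9 and 85 for Cxcl10.

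In that library the summed endothelial markers were also the highest, with 544, 499 and 817 CPM in KO against 593, 483 and 464 CPM in WT, all 11 markers being tested. Summed adipocyte markers were highest there too, with 157, 116 and 248 CPM in KO against 211, 160 and 114 CPM in WT. So were the scarce mesothelial markers, at 0.995 CPM in KO replicate 3. T and natural killer cell markers were scarce in every library: their sum over 12 genes was 1.65, 0.382 and 1.6 CPM in KO and 0.872, 0.675 and 0.787 CPM in WT, with 0 of 12 passing the filter. The sum lay above every WT library in KO replicates 1 and 3 and below every WT library in KO replicate 2. Counts over all 6 libraries ran from 2 for Cd3d and Ncr1 to 35 for Lck. Between these, Cd3e had 3, Cd2 16, Trac 17 and Cd4 25 counts. Summed neutrophil markers in KO replicate 3 were 0.346 CPM. The part of these cell types, or of macrophages and monocytes, in the chemokine values of KO replicate 3 was not tested.

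All 4 atypical chemokine receptors passed the filter, and each had a log2 fold change above 0, between 0.43 and 1.27. Ackr1, which binds many CC and CXC chemokines on venular endothelium, had 0.928, 1 and 1.43 CPM in KO against 0.415, 0.437 and 0.621 CPM in WT. Each KO library was higher, at 1.19 ± 0.325 (adjusted p = 0.264, edgeR), and the value without KO replicate 3 was 0.97. Its exons overlap those of Cadm3 on the same strand by 361 bases, so reads could be divided between them. Ackr4, a scavenger of Ccl19, Ccl21 and Ccl25, had 1.24, 0.717 and 1.9 CPM in KO against 0.54, 0.437 and 0.621 CPM in WT. Its libraries were separate too, at 1.27 ± 0.408 (adjusted p = 0.279) and 0.87 without KO replicate 3, and its exons overlap Acad11 on the opposite strand by 479 bases. Ackr1 and Ackr4 rest on 10 to 44 counts per library.

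Ackr3, which takes up Cxcl12 and is the most abundant of these receptors, had 34.4, 26.9 and 41.7 CPM in KO against 27.4, 16 and 33.1 CPM in WT. The groups overlapped, and the difference of 0.43 ± 0.263 did not pass (adjusted p = 0.456, edgeR). Ackr2, which degrades inflammatory CC chemokines, had 2.22, 1.48 and 1.95 CPM in KO against 1.87, 0.636 and 1.66 CPM in WT (0.44 ± 0.399, adjusted p = 0.62). In both Ackr2 and Ackr3, replicate 2 was the lowest library of each genotype. Ackr2 had 0.09 without WT replicate 2 and 0.72 without WT replicate 1, and Ackr3 had 0.18 without WT replicate 2 and 0.67 without WT replicate 3. Leaving out KO replicate 3 gave 0.27 for Ackr3. Smallest adjusted p-values over the alternatives were 0.249 for Ackr1 and 0.236 for Ackr4, all from edgeR, since DESeq2 gave neither gene an adjusted p.

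**Figure D5:**
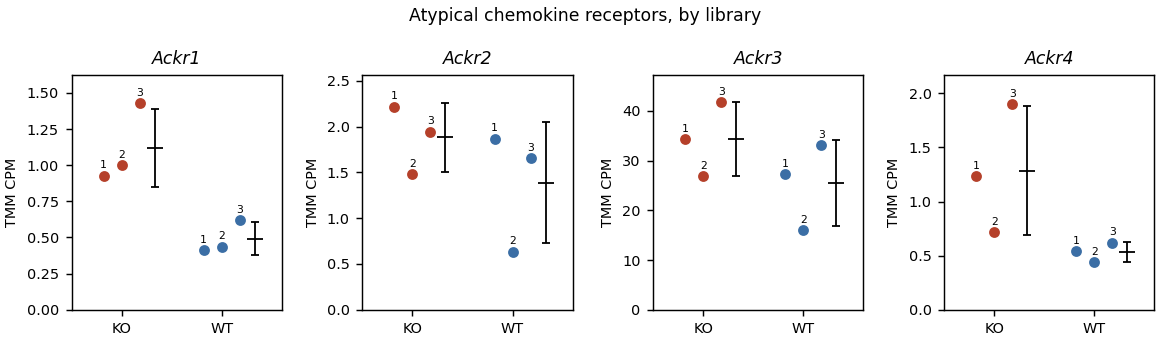
TMM CPM of the 4 atypical chemokine receptors in each library, with replicate numbers above the points and mean ± SD (n = 3) beside each group, KO left of WT. KO and WT points of Ackr1 and Ackr4 do not overlap, while those of Ackr2 and Ackr3 do.

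Signalling chemokine receptors, which mark leukocytes, were near the limit of detection. Of 17, 3 were at 0 in every library and 7 had under 10 counts in all. Ccr2, the receptor of inflammatory monocytes, had 1.24, 0.526 and 1.99 CPM in KO against 1.08, 0.318 and 0.497 CPM in WT (0.99 ± 0.584, adjusted p = 0.443, edgeR). KO replicate 3 was its highest library, the groups overlapped, and without that library the log2 fold change was 0.47. Cx3cr1, the receptor of Cx3cl1 on monocytes and macrophages, had 2, 3 and 16 counts in KO against 9, 8 and 15 counts in WT. Cxcr4, the receptor of Cxcl12, had 8, 3 and 9 counts in KO against 15, 7 and 5 counts in WT. Neither was tested, and their counts overlapped between genotypes.

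Genes that relay or limit these signals were read from the same fit, in lists chosen with earlier results of these data known. None of their tested members passed in edgeR: 0 of 10 JAK and STAT proteins, 0 of 14 feedback inhibitors, 0 of 23 genes of the relay to NF-kB, 0 of 26 cytokine genes outside the name rule and 0 of 19 transducers of chemokine receptors. Their median log2 fold changes were 0.06, −0.03, 0.04, 0.09 and 0.09, and those counts under an unadjusted p of 0.05 were 2 higher and 0 lower, 0 and 4, 1 and 2, 1 and 1, and 2 and 2. Over all tested rows the shares were 6.8% higher and 7.76% lower. DESeq2 called Stat2 as higher and Socs6 as lower and no other gene of these lists, where it called 2.35% of all rows with an adjusted p.

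Stat2, a transducer of interferon receptors, had 24.5, 21.9 and 45 CPM in KO against 14.4, 18.4 and 18.5 CPM in WT. The groups were separate, at 0.83 ± 0.267 (adjusted p = 0.279 in edgeR, 0.0494 in DESeq2, and between 0.0494 and 0.575 over the alternatives), and 0.44 without KO replicate 3. Socs6, a member of the suppressor of cytokine signalling family, had 20.4, 18.4 and 21.1 CPM in KO against 25.6, 26.5 and 27 CPM in WT. Every KO library was lower, at −0.40 ± 0.078 (adjusted p = 0.239 in edgeR, 0.0255 in DESeq2, and between 0.0255 and 0.575 over the alternatives). Its relative Socs4 had 33.8, 33 and 33.2 CPM in KO against 38.9, 39.4 and 37.6 CPM in WT, a log2 fold change of −0.21 ± 0.059 (adjusted p = 0.264). Tyk2, a Janus kinase, had 32.4, 30.4 and 30 CPM in KO against 28.3, 23.1 and 24.8 CPM in WT, and the libraries were separate at 0.28 ± 0.091 (adjusted p = 0.279).

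In the relay from Il1r1 to NF-kB, values again went both ways. Tab2, an adaptor of the kinase Map3k7, had 82.2, 80.6 and 77 CPM in KO against 90, 88.5 and 101 CPM in WT, with every KO library lower (−0.22 ± 0.069, adjusted p = 0.277, edgeR). Ikbkb, the kinase that releases NF-kB, had 62.4, 54.3 and 57.6 CPM in KO against 48.2, 52 and 47.9 CPM in WT, with every KO library higher (0.24 ± 0.07, adjusted p = 0.275). Outside the name rule, Sdc4, a heparan sulfate proteoglycan that binds chemokines, had 125, 138 and 146 CPM in KO against 166, 153 and 158 CPM in WT (−0.23 ± 0.076, adjusted p = 0.279). Ctf1, a cytokine that signals through Il6st, had 8.61, 9.32 and 8.87 CPM in KO against 7.14, 7.31 and 7.91 CPM in WT (0.26 ± 0.109, adjusted p = 0.331). Neither group overlapped in these 4 genes.

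Downstream of chemokine receptors, Elmo1, which links them to the actin cytoskeleton, had 24.1, 18.2 and 24.7 CPM in KO against 17.1, 18.2 and 15.3 CPM in WT. KO replicate 2 lay just under the highest WT library, and the difference of 0.40 ± 0.133 did not pass (adjusted p = 0.279, edgeR). Arrb2, an arrestin that ends receptor signalling, had 14.5, 11.1 and 13 CPM in KO against 9.92, 9.5 and 11 CPM in WT, with separate groups at 0.34 ± 0.128 (adjusted p = 0.3).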

How the data were processed

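Messenger RNA was measured in 3 KO and 3 WT aortic libraries made with a stranded poly(A) kit. The submitters' processing notes name Trimmomatic 0.36, STAR 2.6.0c, Subread 1.6.1 with featureCounts, and build GRCm38. The deposited table holds raw counts per gene, made by the authors. The sources used here give no annotation release, strand setting or treatment of multiply mapping reads. Genes were placed by symbol on GENCODE M21.

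Counts were tested with edgeR 4.0.16 (R 4.3.3): quasi-likelihood, genotype as the only term, TMM scaling, filterByExpr (minimum count 10, minimum total 15), two-sided p-values adjusted by Benjamini and Hochberg over all tested rows, threshold 0.05. DESeq2 1.42.0 was an alternative. The script was tested on simulated data first. The log2 scale is KO over WT, and SE come from the F statistic. Members and lists were chosen with earlier results of these data known. Values are given for the 10 members of smallest p, the 3 of highest CPM per role, the 6 of largest fold change, the 5 untested ones of highest count and 2 genes per pathway list. Others were chosen after their values were seen, and 1 member is not reported here. Replicates differed beyond counting noise (chi-square per gene 13.96 to 65). The design text speaks of 3 pairs, but no label says that a replicate number marks one, so the main test has no pairing.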

Additional observations from a re-analysis of the deposited data

How the results depend on the processing

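Over the 12 alternatives, edgeR called 0 members wherever it was used, and DESeq2 called 1 member as lower. Over all rows, DESeq2 called 60 higher and 139 lower, and without a filter on low counts edgeR called 5 higher and 4 lower. With the replicate number as a block, edgeR called 0 rows higher and 0 lower, and 35 of 48 members lay above 0. Same-numbered libraries had correlations of their deviations of 0.107, 0.134 and −0.0556, and KO replicate 3 correlated best with WT replicate 1 (0.179), which leaves unsettled whether the numbers mark the study's 3 pairs. Leaving out 1 library, edgeR called 0 to 2 rows higher (2 without KO replicate 2) and 0 to 1 lower (0 without WT replicate 1). In the pathway lists, DESeq2 called 1 gene higher and 1 lower. The members' median log2 fold change lay between 0.135 and 0.396 over the alternatives, the highest without KO replicate 2. Members with every KO library above every WT library numbered 6 to 19 when 1 library was left out (19 of 51 without KO replicate 2, where 18.8% of all tested rows did so, 10 without KO replicate 3 with 16.6%, and 10 without WT replicate 1 with 16.1%), and those below numbered 4 to 8 (8 without KO replicate 1, with 14% of all rows, and 8 without KO replicate 3, with 16.6%), since fewer libraries must be separated. With a mean count of at least 50 that lower count was 3, among 27 tested members, with 12.1% of all rows.

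Of 35 genes named by rule and tested, 5 changed sign with 1 library left out. Their highest values with 1 library left out were 2.84 for Cxcl9 (without KO replicate 2), and 2.78 for Ccl8, 0.524 for Ccl11 and 0.178 for Cx3cl1 (without WT replicate 1). Without KO replicate 3, values were −0.564 for Cxcl9, −0.188 for Ccl8, −0.259 for Cx3cl1, −0.0332 for Ccl11 and 0.0275 for Il17b. Il17b had 0.0283 without KO replicate 2, Ccl11 had −0.269 without WT replicate 2 and −0.00861 without WT replicate 3, and Cx3cl1 had −0.107 without WT replicate 2. Depth limits the scarce ligands and receptors: 3 counts equal 0.119 to 0.155 CPM per library.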
